A study of Mus musculus with 9 samples.

Results

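The genes described here are the non-globin genes of the red cell lineage, in the pituitary of embryonic and adult mice. They were given by name as 8 genes: Gata1, Klf1, Epor, Alas2, Slc4a1, Epb42, Hemgn and Ahsp. Of these, 7 were matched to identifiers among the 55450 genes of the count files through the symbols of GENCODE mouse release 21, and Ahsp was not matched to a symbol and is not analysed here. The tissues compared were Rathke's pouch, taken at e13.5 from 7 embryos, and the pituitary of 2 adults at postnatal week 8, which is labelled anterior pituitary. The embryos were Sox2Egfp/+, so each carried a reporter allele at Sox2, and no genotype is stated for the adults. All animals were of a mixed 129Sv/c57BL6J background, each library came from a separate animal, and sex is not given per sample. By the study's methods both stages held males and females, so the adults were of opposite sex. The sex of single embryos was not determined, and its part in differences among the embryos was not tested. The posterior lobe was removed from the adult glands. The libraries held 16738863 to 28537311 read pairs counted on genes in the embryos (median 24687556), and 36421545 and 31191117 in adults 1 and 2.

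Red cells arise from haematopoietic progenitors that switch on Gata1 and Klf1, become dependent on erythropoietin through its receptor Epor, and then make haem, globin and a specialised membrane skeleton. In the mouse embryo the first red cells come from the yolk sac, circulate with a nucleus and carry the embryonic globins Hbb-y, Hbb-bh1 and Hba-x. Later red cells come from the fetal liver and then the bone marrow and lose the nucleus. The pituitary is not a site of blood formation, but it is served by a dense capillary bed.

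Markers of the labelled tissues were present. Hesx1, a transcription factor of Rathke's pouch, was at a median of 22.4 CPM (counts scaled to library size with TMM) in embryos, and at 0.339 and 0.562 CPM in the adults. The growth hormone gene Gh was at 53470 and 63848 CPM in the adults and at most 1.90 CPM in the embryos. Pomc, the precursor gene of corticotrophs and melanotrophs, was at 27015 and 61936 CPM in the adults and at 117 to 451 CPM in the embryos. Of 6 pouch markers, 2 were called higher in the embryo, and of 8 markers of hormone cells, 7 were called higher in the adult, all except Tshb.

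Embryos 1 and 4 stood apart from the other 5 in how their read pairs aligned. The share of read pairs that fell on genes was 59.7% and 62.8% in this pair, 73.9% to 80.0% elsewhere among embryos, and 84.0% and 83.7% for adults 1 and 2. Read pairs that aligned in several places, which the counts leave out, made up 21.7% and 26.1% of these libraries and 14.1% to 19.7% of the other embryos. The globin genes took 14.6% and 16.8% of the counted read pairs in embryos 1 and 4, 0.772% to 2.06% in the remaining 5, and 0.0826% and 0.214% in adults 1 and 2. Results that rest on embryos 1 and 4 are given below with and without them.

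The 7 genes lie on 6 chromosomes (GRCm38). Alas2 (ENSMUSG00000025270) spans chrX:150547375-150570638 on the plus strand, and Gata1 (ENSMUSG00000031162) spans chrX:7959260-7978071 on the minus strand. Klf1 (ENSMUSG00000054191) is at chr8:84901928-84905291 (plus), Epor (ENSMUSG00000006235) at chr9:21958897-21963506 (minus) and Slc4a1 (ENSMUSG00000006574) at chr11:102348824-102366203 (minus). Epb42 (ENSMUSG00000023216) is at chr2:121017891-121037072 (minus) and Hemgn (ENSMUSG00000028332) at chr4:46393989-46413506 (minus). Exons of Alas2 share 311 bases with Apex2 and 61 bases with Mir3620, both on the opposite strand, which the strand-specific counts keep apart. No other member overlaps an annotated gene.

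Promoter sequences (RefSeq, GRCm38.p6) were found for 6 of the 7 members, and Slc4a1 had no entry. The 250 bases before each start were searched on both strands for the core GATA motif (AGATAA or TGATAA, where the last base may also be G), which Gata1 and its relatives bind, and for CCNCNCCC, a CACCC-box motif of the Klf family. The GATA motif was present in 5 of the 6 windows, with 1 match in each, and was missing from that of Gata1. The CACCC-box motif was present in 4 of the 6 windows, those of Alas2, Epor, Gata1 and Hemgn, and 3 windows held both. The pattern also fits a plain run of C. The Hemgn matches lie in such a run on the minus strand of the gene and hold no CACCC, and Hemgn is counted in both totals. Over all 32851 promoter windows of this length, 26.5% held the GATA motif, 45.9% the CACCC-box motif and 8.19% both. A match describes letters in the window and is not a measured binding site. The stretches below are shown for Klf1 and Epb42, which were higher in the embryo, for Alas2, the most abundant of the 7, and for the receptor gene Epor, whose levels overlapped between the stages. Each runs 5′ to 3′ on the strand of the gene, with matches in capitals, and ends where an annotated exon begins or at the start site. They are chrX:150547167-150547374 (plus) for Alas2, chr8:84901732-84901927 (plus) for Klf1, chr2:121037073-121037127 (minus) for Epb42 and chr9:21963577-21963826 (minus) for Epor.
Alas2: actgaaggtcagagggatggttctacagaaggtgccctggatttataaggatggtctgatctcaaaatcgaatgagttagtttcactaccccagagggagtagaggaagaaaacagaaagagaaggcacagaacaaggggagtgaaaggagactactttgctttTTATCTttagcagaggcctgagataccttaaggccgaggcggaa
Klf1: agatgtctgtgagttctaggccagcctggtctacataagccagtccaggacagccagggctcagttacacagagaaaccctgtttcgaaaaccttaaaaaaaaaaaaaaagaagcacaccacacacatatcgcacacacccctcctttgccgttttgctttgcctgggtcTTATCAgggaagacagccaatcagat
Epb42: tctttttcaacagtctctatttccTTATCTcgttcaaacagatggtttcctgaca
Epor: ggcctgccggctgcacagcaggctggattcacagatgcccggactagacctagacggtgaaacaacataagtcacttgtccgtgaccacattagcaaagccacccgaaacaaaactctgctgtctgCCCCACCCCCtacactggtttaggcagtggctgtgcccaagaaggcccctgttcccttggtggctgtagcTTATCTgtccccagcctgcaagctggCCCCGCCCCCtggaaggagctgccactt
The GATA match begins 86 bases before the start of Alas2, 80 before that of Klf1, 226 before that of Epb42 and 54 before that of Epor, and on the minus strand of the gene in all 4. The CACCC-box matches of Epor form a pair of overlapping matches at each of 2 places, beginning 124 and 28 bases before the start. The place at 124 holds the letters CACCC, and the place at 28 fits the pattern without them. Those of Alas2 lie in exon sequence and are not shown.

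Among the transcription factors, Klf1 was higher in the embryo and Gata1 was not called. Klf1 activates the adult beta-globin gene and many genes of the red cell membrane and haem pathway. Its level in the embryos was 0.941 CPM at the lowest, 1.25 CPM at the median and 3.44 CPM at the highest (19 to 71 counts), and 0.145 and 0.450 CPM in the adults (6 and 16 counts). All 7 embryos were above both adults, with embryos 1, 3 and 4 at 3.44, 2.88 and 3.17 CPM and the other 4 close together at 0.941 to 1.25 CPM. The log2 fold change, embryo over adult, was 2.74 ± 0.83 (SE; n = 7 and 2; edgeR quasi-likelihood test, Benjamini-Hochberg adjusted p = 0.0129 over 19371 genes), past both thresholds for a call, an adjusted p below 0.05 and a fold change above 4. In bulk RNA of this kind, fewer cells of a type and less RNA per cell cannot be told apart, here and for every gene that follows. Without adult 1 the call was lost (log2 fold change 2.13, adjusted p = 0.145). With a correction for transcript length and GC content the fold change fell to 1.90 on the log2 scale, below the threshold (adjusted p = 0.0438). Over 21 alternative settings the adjusted p ranged from 0.000722 to 0.324, and Klf1 was called under 17.

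Gata1 encodes the zinc finger factor that red cells, megakaryocytes and mast cells share. It was at 0.706 CPM at the lowest, 1.76 CPM at the median and 5.93 CPM at the highest in the embryos, and at 0.267 and 0.843 CPM in the adults (11 and 30 counts). Embryos 1 and 4 were highest, at 5.93 and 4.44 CPM, and embryo 7, the lowest, lay between the adults, so that the groups overlapped. The log2 fold change was 2.10 ± 0.92 (SE) and did not pass (edgeR adjusted p = 0.0685). Without embryos 1 and 4 it was 1.25 ± 0.64 (adjusted p = 0.113). The DESeq2 Wald test put Gata1 past both thresholds (adjusted p = 0.0228), and so did edgeR without embryo 7 (log2 fold change 2.26, adjusted p = 0.0472). The range over the alternatives was 0.0228 to 0.796, with a call under 3 of 21.

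Epor, the receptor through which erythropoietin keeps erythroid progenitors alive, did not separate the stages. The embryos had 1.44 CPM at the lowest, 2.07 CPM at the median and 4.98 CPM at the highest, and the adults 2.35 and 1.74 CPM, from 29 to 85 counts in the embryos and 97 and 62 in adults 1 and 2. Embryo 1 was far above the rest, embryo 4 at 2.54 CPM was not, and both adults lay within the range of the embryos. The log2 fold change was 0.24 ± 0.57 (SE; edgeR adjusted p = 0.744). It was -0.08 ± 0.44 without embryos 1 and 4 and -0.49 ± 0.47 with the length and GC correction, and Epor was called under none of the 21 alternatives (adjusted p from 0.0966 to 1). A p above the threshold does not show that the levels were equal.

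Alas2, the erythroid form of the enzyme that starts haem synthesis, had the most read pairs of the 7 genes and the widest range. It was at 46.4 CPM in embryo 7, the lowest, at a median of 181 CPM and at 2094 CPM in embryo 4, the highest, with 1305 CPM in embryo 1. The adults had 33.5 and 99.3 CPM, from 1383 and 3532 counts. Embryos 1 and 4 were over 6 times above the next embryo (207 CPM in embryo 3), and embryo 7 was below adult 2, so that the groups overlapped in that library alone. The mean was 587 ± 795 CPM (SD, n = 7) in the embryos and 66.4 ± 46.5 CPM (SD, n = 2) in the adults, and the log2 fold change of 3.14 ± 1.34 (SE) did not pass (edgeR adjusted p = 0.0620). Without embryos 1 and 4 it was 1.11 ± 0.52 (adjusted p = 0.0856). It passed under 4 of the 21 alternatives, which were the DESeq2 Wald test (adjusted p = 0.0391), no filter on low counts (0.00143), and the omission of embryo 5 (log2 fold change 3.32, adjusted p = 0.0470) or embryo 7 (3.35, adjusted p = 0.0374). The adjusted p ranged from 0.00143 to 0.493.

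Slc4a1 and Epb42, whose proteins bind each other, were both called higher in the embryo. Slc4a1 encodes band 3, the anion exchanger that carries bicarbonate and anchors the membrane skeleton. Its level in the embryos was 16.9 CPM at the lowest, 41.3 CPM at the median and 316 CPM at the highest (341 to 4483 counts), against 1.33 and 4.10 CPM in the adults (55 and 146 counts). All 7 embryos lay above both adults, and embryos 1 and 4, at 209 and 316 CPM, lay above the others, which ended at 63.6 CPM. The mean was 99.6 ± 117 CPM (SD, n = 7) against 2.72 ± 1.96 CPM (SD, n = 2), and the log2 fold change was 5.20 ± 1.32 (SE; edgeR adjusted p = 0.00470). It stayed past the threshold without embryos 1 and 4, at 3.69 ± 0.65 (adjusted p = 0.000515). Slc4a1 was called under 20 of the 21 alternatives. The exception was leaving out adult 1, the lower adult (log2 fold change 4.58, adjusted p = 0.0533), and the lowest adjusted p was 7.45e-07.

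Epb42 encodes protein 4.2, which binds band 3 to the skeleton. The embryos had 0.802 CPM at the lowest, 1.78 CPM at the median and 16.0 CPM at the highest, and the adults 0.388 and 0.590 CPM (16 and 21 counts). The groups did not overlap, but embryos 2 and 7, at 0.879 and 0.802 CPM, were near adult 2, while embryos 1 and 4 were at 9.23 and 16.0 CPM. The log2 fold change was 3.22 ± 1.23 (SE; edgeR adjusted p = 0.0397). Without embryos 1 and 4 the log2 fold change was 1.60 ± 0.61 (adjusted p = 0.0403), a fold change below 4, so that Epb42 was not called. With the length and GC correction in addition it was 2.07 (adjusted p = 0.0177) and called. The call was lost without adult 1 (log2 fold change 2.93, adjusted p = 0.190) and without adult 2 (3.54, adjusted p = 0.135). The adjusted p ranged from 0.00198 to 0.333 over the alternatives, with a call under 17 of 21.

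Hemgn, a nuclear protein gene of maturing blood cells, had the fewest counts. The embryos had 4 to 49 counts (0.198 CPM at the lowest, 0.353 CPM at the median, 3.46 CPM at the highest) and the adults 2 and 24 (0.0485 and 0.675 CPM). Embryos 1 and 4 were highest at 2.49 and 3.46 CPM, and the other 5 embryos, at 0.198 to 0.652 CPM, were all below adult 2. In adult 1 the 2 counts are below the floor of 3 counts (0.0727 CPM). The log2 fold change was 1.57 ± 1.29 (SE; edgeR adjusted p = 0.323), and 0.02 ± 0.87 without embryos 1 and 4. It was 0.65 without adult 1 and 4.33 without adult 2. Hemgn was called under none of the 21 alternatives (adjusted p from 0.134 to 1).

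Of the 7 members, all passed the filter on low counts, 3 were called higher in the embryo (Slc4a1, Klf1 and Epb42), 0 were called higher in the adult (edgeR and DESeq2) and 4 were not called. Among all 19371 genes tested, 11.3% were called higher in the embryo and 14.6% higher in the adult. The 3 called members were also the 3 whose embryos all lay above both adults, a pattern shown by 26.2% of all tested genes. The median log2 fold change of the 7 members was 2.74, beside -0.04 over all tested genes. Without embryos 1 and 4 the count was 2 (Slc4a1 and Klf1), the median was 1.25 and 11.5% of all 19508 genes tested were called higher in the embryo. Without adult 1 edgeR called 0 of the 7, with 1 at an unadjusted p below 0.05, and without embryo 7, the embryo with the lowest level of Alas2, it called 5. With all libraries 5 members had an unadjusted p below 0.05, all higher in the embryo, and DESeq2 called 5.

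**Figure D1:**
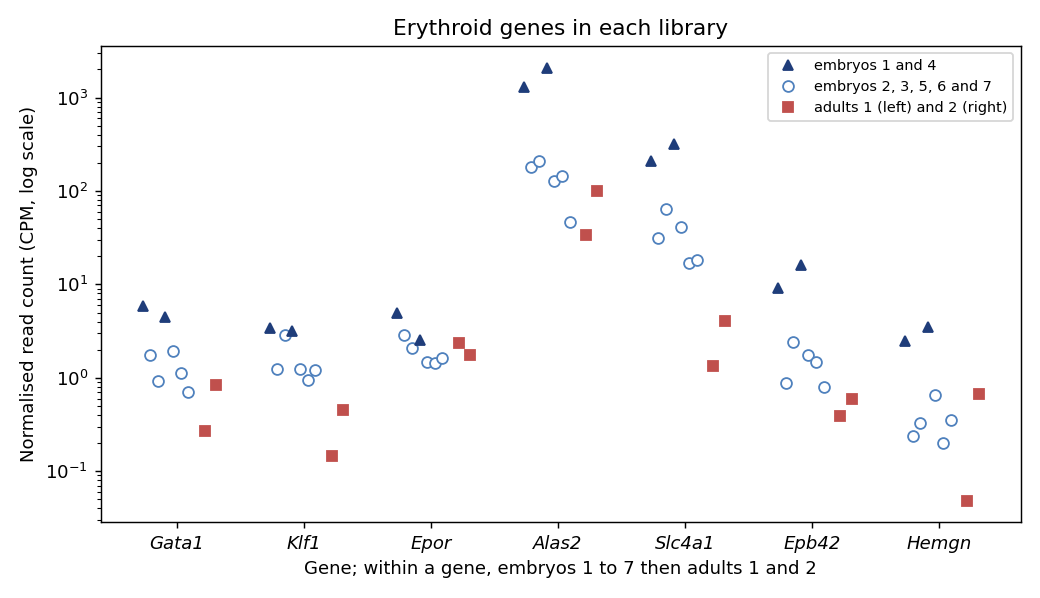
Normalised read count (CPM, log axis) of each erythroid gene in each library, with the 7 embryos of a gene in order of their number followed by the 2 adults. Triangles are embryos 1 and 4, open circles the other 5 embryos and squares the adults. Slc4a1, Klf1 and Epb42 have every embryo above both adults, and the squares of Epor, at 2.35 and 1.74 CPM, lie among its embryos.

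**Figure D2:**
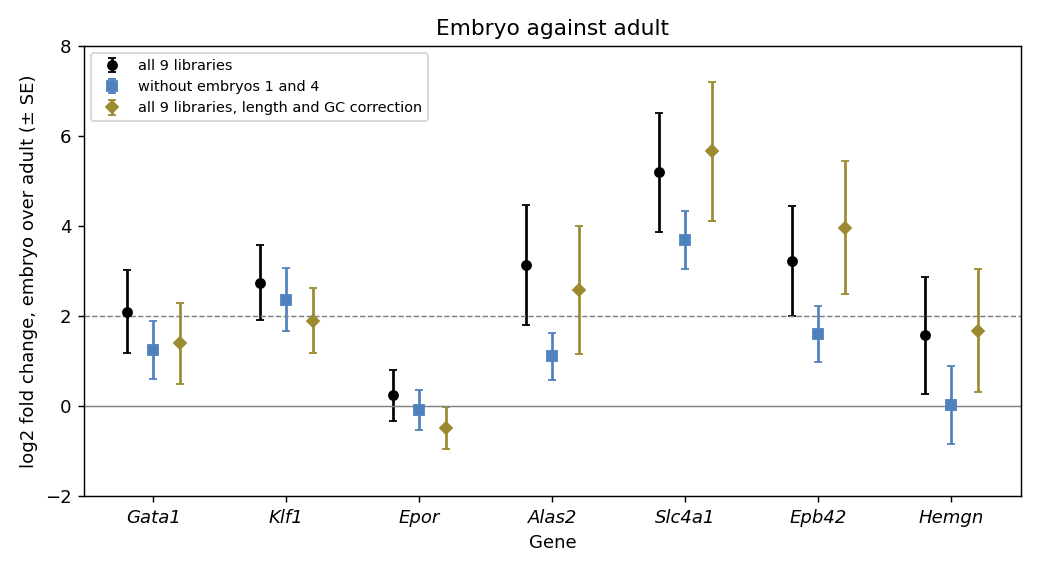
Log2 fold change of each gene, embryo over adult, with its standard error, for all 9 libraries, without embryos 1 and 4, and with the length and GC correction. The dashed line marks the fold change of 4 needed for a call. Leaving out embryos 1 and 4 moved Alas2 from 3.14 to 1.11 and Hemgn from 1.57 to 0.02, and Klf1 from 2.74 to 2.36.

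The members differed widely in how much they varied among the embryos. For 6 of the 7, all except Epor, embryos 1 and 4 were the highest of the embryos, which held for 11.4% of all tested genes. The highest embryo was 45.2 times the lowest for Alas2, 19.96 times for Epb42, 18.7 times for Slc4a1, 17.5 times for Hemgn and 8.40 times for Gata1. For Klf1 and Epor the ratio was 3.66 and 3.47. The SD of log2(CPM + 0.5) over the embryos was 1.95 for Alas2, a spread that 0.160% of all tested genes exceeded, and 1.64 for Slc4a1 (exceeded by 0.346%), 1.42 for Epb42 (0.702%), 1.03 for Hemgn (3.11%) and 0.91 for Gata1 (5.24%). Klf1 and Epor, at 0.62 and 0.53 (22.1% and 34.5%), were nearer the median of 0.45 over all tested genes, though still above it. Alas2 and the membrane genes were thus the most variable of the 7, and Klf1 and Epor the least.

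The adults also differed from each other. Adult 2 was above adult 1 by 2.96 times for Alas2 (95% exact interval from counting error alone 2.78 to 3.15), 3.08 times for Slc4a1 (2.24 to 4.28), 3.16 times for Gata1 (1.54 to 6.99) and 3.09 times for Klf1 (1.15 to 9.65). These 4 ratios lay close together. Hemgn had 2 and 24 counts (13.9 times, 3.45 to 121). For Epb42 the ratio was 1.52 (0.757 to 3.12) and for Epor 0.741 (0.530 to 1.03), both within counting error of no difference. With 2 adults, the spread within that group rests on this difference alone, and the part of sex in it was not tested.

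Levels of different genes were compared per kilobase of their longest transcript. On this scale Alas2 was the highest of the 7 in every library, at 22.8 to 1028 CPM per kilobase in the embryos and 16.5 and 48.7 in adults 1 and 2. Slc4a1 came next in all 7 embryos, at 3.72 to 69.6 CPM per kilobase. In the adults Epor came next, at 1.34 and 0.990 CPM per kilobase, with Slc4a1 at 0.293 and 0.903. The other genes had mean levels of 1.38 (Epor), 1.32 (Klf1), 1.27 (Gata1), 1.13 (Epb42) and 0.466 (Hemgn) CPM per kilobase in the embryos, and their ranges over the embryos overlapped, so no order among these 5 is given. In the adults Gata1, Klf1, Hemgn and Epb42 had means of 0.292, 0.195, 0.153 and 0.119 CPM per kilobase.

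The globin level of a library was taken as the sum of 10 globin genes. It was 178947 and 223142 CPM in embryos 1 and 4, 6382 to 19842 CPM in the other 5 embryos, and 729 and 1877 CPM in adults 1 and 2. Hba-a1 and Hba-a2 are near-identical copies, so their separate counts are uncertain, and pairs that aligned to both were not counted. Of 9 globin genes tested, 8 were called higher in the embryo, 6 without embryos 1 and 4, and 3 without adult 1, without adult 2 or with the length and GC correction. Over all tested genes 11.3% were called higher in the embryo. The median log2 fold change of the globin genes was 4.91, and 2.83 without embryos 1 and 4. The embryos formed separate groups of 2 and 5 on this measure, and neither held the 6 samples required within a group. A correlation over all 7 would rest on the gap between the groups, and the one that had been planned was not run. The values per library are shown instead, as member counts per 1000 globin counts, a ratio that the scaling of the library does not touch.

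Alas2 kept nearly the same ratio to globin in all embryos, including embryos 1 and 4. There were 7.27 to 10.6 Alas2 counts per 1000 globin counts over the 7 embryos (median 7.82), with 7.30 in embryo 1 and 9.38 in embryo 4. In the adults there were 46.0 and 52.9. The highest embryo was thus 1.46 times the lowest, where the CPM of Alas2 differed 45.2 times. Slc4a1 ranged from 0.865 to 3.25 per 1000 globin counts in the embryos, with the adults inside that range at 1.83 and 2.19, and Epb42 from 0.0443 to 0.126, with the adults above it at 0.532 and 0.315. The most abundant globin gene was Hbb-y in the embryos and Hbb-bs in the adults. Read pairs that aligned to several globin genes were not counted, and how far their loss moved these ratios between the stages was not tested.

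For 3 of the 7 members, Klf1, Epor and Gata1, embryos 1 and 4 were the lowest embryos on this ratio, as for 88% of all tested genes, so these 3 are not set apart from other genes. Klf1 was at 0.0192 and 0.0142 counts per 1000 globin counts in embryos 1 and 4, below all other embryos (0.0482 to 0.191). Epor was lowest in the same embryos, at 0.0278 and 0.0114, against 0.0735 to 0.256 in the others and 3.22 and 0.929 in the adults. Gata1 was at 0.0332 and 0.0199 there, against 0.0477 to 0.120 in the others. Alas2, Slc4a1, Epb42 and Hemgn did not show this order. Both adults were above all embryos on this ratio for 6 of the 7 members, all except Slc4a1. The same was true of 86.1% of all tested genes, so that count is near the background.

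**Figure D3:**
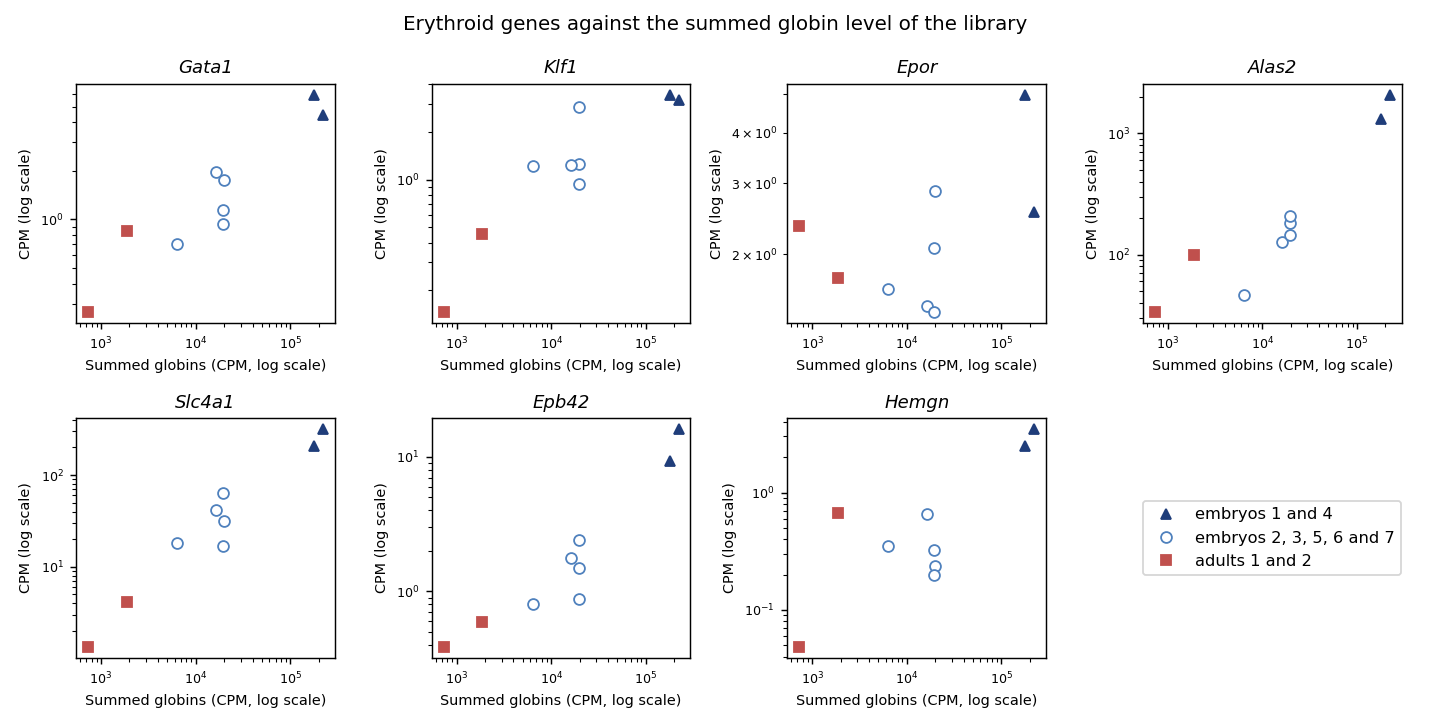
Level of each erythroid gene (CPM, log axis, a separate range in each panel) against the summed globin level of the same library (CPM, log axis). Each point is a library, with triangles for embryos 1 and 4, open circles for the other 5 embryos and squares for the adults. Alas2 and globin are both highest in embryos 1 and 4 (1305 and 2094 CPM of Alas2) and lowest among embryos in embryo 7 (46.4 CPM), while for Epor embryo 4 is not set apart from the other embryos.

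The wider red cell programme was described with 5 fixed lists of 49 genes, of which 47 could be tested. Of these, 14 were called higher in the embryo, 4 higher in the adult and 29 were not called, beside 11.3% and 14.6% of all tested genes. For 13 of these 14 genes, embryos 1 and 4 were the highest embryos. The same held for 28 of the 47 tested genes of the lists, and for 11.4% of all tested genes. Without them 13 were called higher in the embryo, and without adult 1 the count fell to 5. Of the 49 genes, 35 reached 1 CPM in both adults, and which cells they came from was not tested.

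Among 9 erythroid transcription genes, 3 were higher in the embryo, 1 was higher in the adult and 5 were not called (median log2 fold change 0.93). Tal1, a partner of Gata1 in blood progenitors, was at 6.19 to 44.9 CPM in the embryos and 1.43 and 0.984 CPM in the adults (log2 fold change 3.87 ± 0.82, edgeR adjusted p = 0.00142). Nfe2, which binds the globin control region, had a median of 5.76 CPM and a highest value of 28.6 CPM against 0.315 and 1.24 CPM (3.62 ± 0.97, adjusted p = 0.00668). Gfi1b, a transcriptional repressor made in red cell and platelet precursors, had no counts in either adult. Its mean in the embryos was at least 11.9-fold higher than the floor of 3 counts per library. The corepressor gene Cbfa2t3 was higher in the adult, at 14.4 and 11.6 CPM against at most 5.27 CPM (adjusted p = 0.000753), a call lost without embryo 3, with the length and GC correction (with or without embryos 1 and 4) and under the test against a fold change of 4. Ldb1, which reached 206 to 354 CPM in the embryos, was the most abundant gene of the list per kilobase in every library.

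In haem synthesis 1 of 11 genes was called, higher in the embryo, beside 11.3% of all tested genes. Urod, a later enzyme of the route than Alas2, was at 90.6 to 269 CPM in the embryos and 50.9 and 43.4 CPM in the adults, with a fold change below 4 (edgeR adjusted p = 0.00172). Alas1, the form of the first enzyme that all cells use, was at 29.6 to 53.9 CPM in the embryos and 41.4 and 35.1 CPM in the adults, and its log2 fold change was -0.01 ± 0.29. It did not follow Alas2 in embryos 1 and 4. The median log2 fold change of the list was 1.07, and 0.57 without embryos 1 and 4. The count was 2 without embryo 7 or with the length and GC correction, and 5 at a threshold of 2. It was 0 under the test against a fold change of 4, and 0 with the correction without embryos 1 and 4. Of 5 iron uptake genes 0 were called higher in the embryo by edgeR or DESeq2, and 0 had an unadjusted p below 0.05 in that direction (median -0.16), and the ferrireductase gene Steap3 was higher in the adult, at 37.9 and 16.5 CPM against 0.706 to 3.81 CPM (adjusted p = 6.53e-05). Tfrc, the transferrin receptor gene, was at 12.5 to 42.8 CPM in the embryos and 71.4 and 58.7 CPM in the adults, with an adjusted p of 0.0237 but a fold change below 4.

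Of 15 red cell membrane genes, 4 were higher in the embryo, 2 higher in the adult and 9 not called (median log2 fold change 1.31, and 0.11 without embryos 1 and 4). Among the genes higher in the embryo, Gypc, which ties the skeleton to the membrane, was at 13.8 to 41.4 CPM in the embryos and 2.81 and 2.02 CPM in the adults (3.17 ± 0.48, edgeR adjusted p = 0.000125), and the blood group gene Kel at 1.35 to 39.7 CPM against 0.0485 and 0.169 CPM (adjusted p = 0.00567). The 2 genes higher in the adult were Ank1 (34.4 and 10.1 CPM in the adults, 0.941 to 7.40 CPM in the embryos, adjusted p = 0.00231) and Tmod1 (23.0 and 19.6 CPM against 0.580 to 8.96 CPM, adjusted p = 0.00352), both of the membrane skeleton and also used outside red cells. Epb41, another skeleton gene, had every embryo above both adults but was not called (1.31, adjusted p = 0.0104). Embryos 1 and 4 were the highest embryos for Ank1 and Tmod1, as for 11 of the 15 genes of the list. Without adult 1 the counts were 1 in each direction, and under the test against a fold change of 4 they were 2 in the embryo and 0 in the adult. With the length and GC correction 1 gene was higher in the adult, and at a threshold of 2 there were 4.

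Of 9 late erythroid genes, Car1 and Trim58 were too low to test. Of the 7 tested, 6 were called higher in the embryo, beside 11.3% of all tested genes. In all 7 every embryo lay above both adults, as for 26.2% of all tested genes. Embryos 1 and 4 were the highest embryos in all 7, as for 11.4% of all tested genes. The median log2 fold change of the list was 3.59, and 2.36 without embryos 1 and 4, when 5 were called. Trim10, a ring finger gene of terminal erythroid cells, was at 3.21 to 88.0 CPM in the embryos and 0.703 and 1.52 CPM in the adults (4.50 ± 1.40, edgeR adjusted p = 0.0151). Car2, a carbonic anhydrase, was at 30.4 to 286 CPM against 6.18 and 8.41 CPM (3.59 ± 0.96, adjusted p = 0.00652). Bpgm, which makes the oxygen affinity regulator of haemoglobin, was at 103 to 541 CPM against 65.3 and 83.7 CPM, with a fold change below 4 (adjusted p = 0.0411). The count was 1 without adult 1, 3 with the length and GC correction, 1 with the correction without embryos 1 and 4, and 0 under the edgeR test against a fold change of 4.

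In the signalling route below Epor the called genes were all higher in the adult. Epo itself had no count in any of the 9 libraries. Of the 9 other genes tested, 3 were called higher in the adult by edgeR and by DESeq2, beside 14.6% of all tested genes (edgeR). Both called 0 higher in the embryo, with 1 at an unadjusted p below 0.05 in that direction (median log2 fold change -1.88, and -1.89 without embryos 1 and 4). The count higher in the adult was 0 under the test against a fold change of 4, 5 with library size alone and 6 at a threshold of 2. Jak2, the kinase bound to Epor and to other cytokine receptors, was at 38.7 and 39.0 CPM in the adults and 5.44 to 10.4 CPM in the embryos (edgeR adjusted p = 2.65e-05). Stat5a, which Jak2 activates, was at 41.4 and 17.8 CPM against 3.27 to 5.71 CPM (adjusted p = 2.11e-05), and Erfe, the erythroid hormone that lowers hepcidin, at 6.67 and 4.22 CPM against 0.690 to 1.76 CPM (adjusted p = 0.000968). In embryos 1 and 4 Erfe was at 1.10 and 1.76 CPM, close to the other embryos.

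Other blood and vessel cells were followed with fixed marker lists, and their part in the results above was not tested. Their counts stand beside 11.3% of all tested genes called higher in the embryo and 14.6% higher in the adult. Megakaryocyte genes, which share Gata1, Gfi1b and Nfe2 with red cells, were higher in the embryo for 4 of 10 tested (Pf4, Gp5, Gp9 and Clec1b; median log2 fold change 2.04), for 1 without adult 1 and for 2 with the length and GC correction. Pf4, the most abundant of the list per kilobase in every embryo, was at 14.1 to 45.2 CPM against 0.630 and 1.77 CPM in the adults (edgeR adjusted p = 5.45e-05). The list summed to 91.8, 61.2, 30.8, 113, 106, 48.2 and 31.0 CPM in embryos 1 to 7 and to 7.08 and 18.8 CPM in the adults. Embryo 5 was thus close to embryos 1 and 4 in this list, unlike in the erythroid genes, and Gp1bb was at 0 in all libraries.

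Of 9 mast cell markers, 7 were too low to test, and 0 of the other two, Cpa3 and Hdc, were called or had an unadjusted p below 0.05 (edgeR and DESeq2). With no filter on low counts edgeR called 3 higher in the adult. The list summed to 4.69 to 17.5 CPM in the embryos and 17.9 and 17.2 CPM in the adults. Hdc, an enzyme gene that is not limited to mast cells, was at 3.86 to 16.8 CPM in the embryos and 17.3 and 16.5 CPM in the adults. Cpa3, a mast cell protease gene, reached 1.49 CPM in embryo 6, where the list summed to 5.35 CPM. Per kilobase Hdc was the most abundant of the list in every library except embryo 6, where Cpa3 was (1.03 and 0.855 CPM per kilobase for Cpa3 and Hdc).

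Leukocyte genes differed between the adults. Their sum was 6.72 CPM for adult 1, 246 CPM for adult 2 and 1.80 to 40.8 CPM over the embryos (3.15 and 13.6 CPM in embryos 1 and 4). Per kilobase the most abundant was S100a9 in adult 1 (2.62 CPM per kilobase) and S100a8 in adult 2 (144 CPM per kilobase). S100a8 was at 1.12 and 71.9 CPM in the adults (64.4 times, 48.2 to 88.2). Of 9 tested, 4 were called higher in the adult (Ptprc, S100a8, S100a9 and Ngp; median -2.97), beside 14.6% of all tested genes, while DESeq2 called 1. The count was 0 without adult 2 (edgeR, with 1 at an unadjusted p below 0.05), 6 without adult 1, 1 without embryo 3, 6 or 7, 2 without embryo 4, 7 with the length and GC correction or with no filter on low counts, and 0 under the edgeR test against a fold change of 4. Adult 2, which had the higher level of 5 of the members beyond counting error and of globin, also had far more of these transcripts, whereas embryos 1 and 4 did not stand out in them.

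Macrophage genes were called in neither direction (0 of 8 by edgeR and by DESeq2, median log2 fold change 0.58). C1qb, Cd68 and Aif1 had an unadjusted p below 0.05 and an edgeR adjusted p of 0.0350, 0.0165 and 0.0352, higher in the embryo with a fold change below 4, and at a threshold of 2 the count was 3. The list summed to 147 to 334 CPM in the embryos and 99.9 and 146 CPM in the adults. Per kilobase C1qb was the most abundant of them in every library except adult 1, where C1qa was (19.5 CPM per kilobase, and 18.0 for C1qb). Endothelial genes were higher in the embryo for 2 of 10, Emcn and Cldn5 (median 1.70), and for 4 without embryos 1 and 4. The shares over all tested genes were 11.3% and 11.5%. Under the test against a fold change of 4 the endothelial count was 1, and at a threshold of 2 it was 6. The endothelial list summed to 469, 794, 238, 353, 437, 377 and 421 CPM in embryos 1 to 7 and 214 and 140 CPM in the adults. Embryo 2 was highest in both lists, and embryos 1 and 4 were within the range of the others for endothelial genes.

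**Figure D4:**
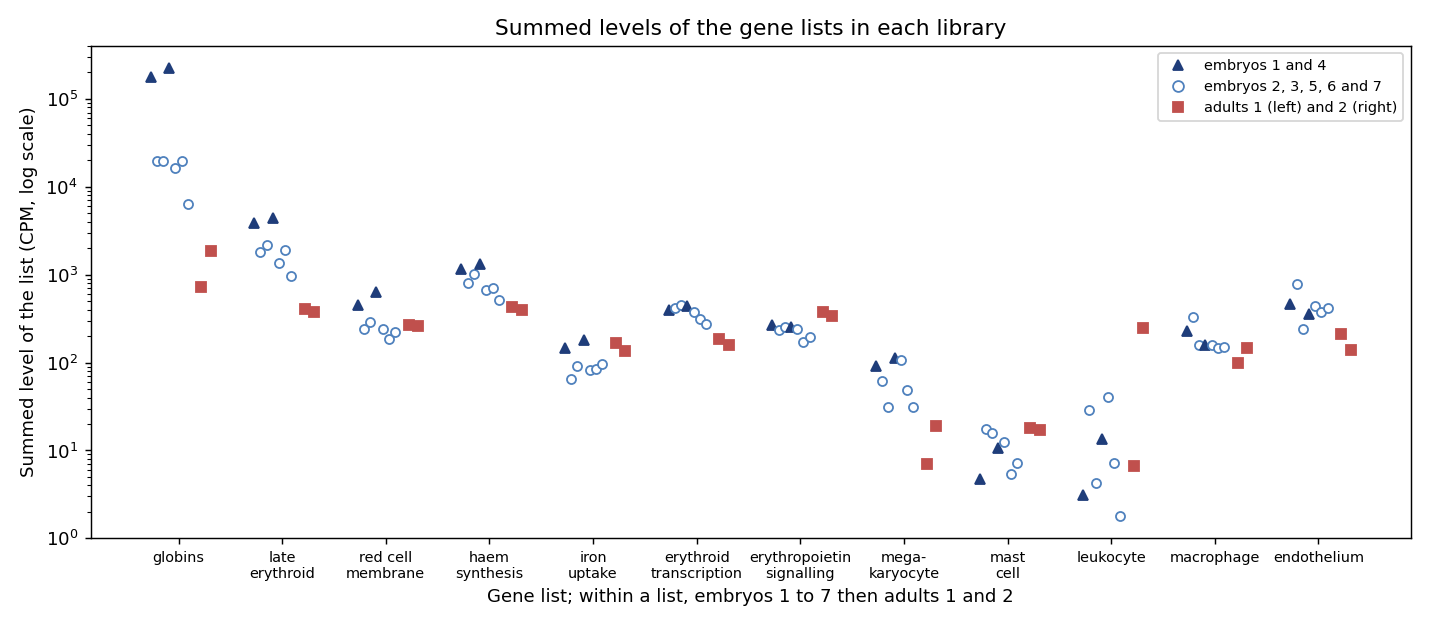
Summed level (CPM, log axis) of each gene list in each library, with embryos 1 to 7 followed by adults 1 and 2. Triangles are embryos 1 and 4, open circles the other embryos and squares the adults. Among embryos, 1 and 4 are highest for globins, late erythroid, red cell membrane, haem synthesis and iron uptake genes, and the adults differ most for leukocyte genes (6.72 and 246 CPM).

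The genes whose pattern over the 7 embryos was most like that of the members were found by correlating log2(CPM + 0.5) with the mean z score of the 7 members, over 15015 genes. This is a description with no test, since the score was 1.33 and 1.25 in embryos 1 and 4 and -0.89 to -0.13 in the others, so that any gene high in those libraries correlates with it. The 10 closest had Pearson's r of 0.983 to 0.992, and they were March2, Trib3, Hba-x, Gm32051, Chkb, Trim10, C130089K02Rik, Hsd3b6, Gm20342 and Hbq1a. Of these, Hba-x and Hbq1a are globins and Trim10 is in the late erythroid list. March2, a membrane ubiquitin ligase, was at 221 and 215 CPM in embryos 1 and 4, 37.3 to 75.1 CPM in the other embryos and 36.4 and 35.1 CPM in the adults. Hsd3b6, a steroid dehydrogenase gene, was at 386 and 558 CPM in embryos 1 and 4 and 21.1 to 81.4 CPM in the others, and had no counts in the adults. Trib3, a pseudokinase of the stress response, was at 22.0 and 22.2 CPM in embryos 1 and 4, 2.08 to 4.39 CPM in the others and 2.98 and 5.48 CPM in the adults.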

How the data were processed

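Directional poly(A) libraries were sequenced for the authors at the Oxford Genomic Centre. The reads went through Trimmomatic 0.39 and then STAR 2.7.5b (mm10, Ensembl release 96). The deposited files hold the raw count of read pairs on each gene as STAR wrote it, without normalisation, and the count on the transcript strand was used. All 55450 identifiers matched GENCODE mouse release 21.

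Genes averaging 5 or more counts per library (19371) were fitted with edgeR 4.0.16 (R 4.3.3; TMM scaling, quasi-likelihood test, a single factor for stage, with a common dispersion of 0.190). A call needs a Benjamini-Hochberg adjusted p below 0.05 over all tested genes and a fold change above 4, which 5001 genes met, and the SE is that implied by the F statistic. CPM uses the TMM library sizes, and a floor of 3 counts was 0.0727 to 0.220 CPM. Intervals and floors cover counting error alone, with no molecular identifiers. An exact test of 1 value in 7 against 2 animals cannot go below p = 0.0556 (two-sided), so none was run. No pair of libraries of the same stage agreed within sampling noise (chi-square per degree of freedom at least 37.2).

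Alternatives were DESeq2 1.42.0, other scalings, filters, strand and thresholds, a length and GC correction, a replicate block, and libraries left out. The correction together with the omission of embryos 1 and 4 was chosen after seeing the data. The members and lists were chosen with earlier results of these data known, and named genes are the members, the listed genes and the 10 genes most like the members (among genes averaging 20 or more counts in embryos). The code was tested on simulated data. Ratios and motifs were computed with Python 3.11.15.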

Additional observations from a re-analysis of the deposited data

Results flagged for a closer look

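Several values over the 7 embryos included a library far from the rest, by the gap to its nearest neighbour over the whole range (Dixon's ratio at its 95% critical value). Chance gives about 1 in 20 such cases, and 35 sets of values were examined. Epor was at 4.98 CPM in embryo 1 (ratio 0.595), with the next embryo at 2.87 CPM. Unmapped read pairs were 10.3% in embryo 1 (ratio 0.590) and 0.863% to 4.74% in the others. The macrophage and endothelial lists were highest in embryo 2, at 334 and 794 CPM (ratios 0.575 and 0.586). For the other 6 members embryos 1 and 4 were high together, a pattern this ratio does not detect.

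Counts on the strand opposite to the transcript entered the unstranded alternative alone. They reached 25 for Alas2 (adult 1), 9 for Klf1 (adults 1 and 2), 7 for Epor (embryo 2 and adult 1) and 5 for Slc4a1 (embryo 4). All of these were above the floor of 3 counts. Over all libraries they were 0.140% of both strands for Alas2, 13.1% for Klf1, 5.45% for Epor and 0.0827% for Slc4a1. For Klf1 in the adults there were 9 and 9, against 6 and 16 on the transcript strand, and its log2 fold change was 2.05 with the unstranded count and 2.74 with the transcript strand. The cause was not tested.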

How the results depend on the processing

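The 21 alternatives quoted in the report leave out the replicate block, a choice made after its values were seen. Animals of the 2 stages share only a number, and deviations of same-numbered animals had correlations of 0.0444 and -0.0128. The block leaves 5 embryos alone in their blocks and 1 residual degree of freedom, so its p-values rest on the spread of other genes. With the block 3 members were called, log2 fold changes were 3.07 for Alas2 (called, adjusted p = 6.31e-09), 2.92 for Klf1 (not called, adjusted p = 0.0597) and 5.06 for Slc4a1 (called, adjusted p = 8.16e-21), and 4236 genes were called in all.

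A fold change threshold of 2 gave 8960 called genes, and a test of the fold change against 4 gave 1744, against 5001. Of the 7 members, 5 were called by DESeq2 and 5 without a filter on low counts, and 1 under the test against 4. Of the 5 erythroid lists, 4 genes were higher in the embryo when tested against 4 and 8 with the length and GC correction without embryos 1 and 4, against 14. The number higher in the adult was 8 at a threshold of 2, 1 when tested against 4 and 2 with the correction, against 4.

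Alas2 passed with DESeq2 (3.14) and without a filter (3.12), and Gata1 likewise (2.09 and 2.09). Klf1 (2.74) and Epb42 (3.22) did not pass when tested against 4. Klf1 was at 1.90 with the correction and 1.60 with the correction without embryos 1 and 4, and Epb42 at 1.60 without these embryos, none past both thresholds, while Epb42 was called at 2.07 with the correction without them. Epor was negative with library size alone (-0.033), with the correction (-0.49), without embryos 1 and 4 (-0.084) and with both (-0.76). Library size alone moved the median of all genes by -0.22.

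Leaving out each library in turn gave 3683 to 5290 called genes, 0 to 5 members, 5 to 15 erythroid genes higher in the embryo and 3 to 4 higher in the adult. The log2 fold changes ranged from 2.37 to 4.12 for Alas2, 4.58 to 6.20 for Slc4a1, 0.01 to 0.45 for Epor, 2.13 to 3.73 for Klf1, 1.47 to 3.12 for Gata1, 2.51 to 3.54 for Epb42 and 0.65 to 4.33 for Hemgn. With 1 adult left out, the other is assumed to vary like the embryos. The causes of these changes were not tested.

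With 2 adults, a call depends on how far these animals stand for others, and counts of 2 to 30 limit Hemgn, Klf1, Gata1 and Epb42 in the adults. Correlations of the members with globin level were not run, because embryos 1 and 4 lie apart from the other 5.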
